A study of Mus musculus with 16 samples.

Results

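The genes described are 7 small heat shock proteins of the mouse heart (Hspb1, Hspb2, Hspb3, Hspb6, Hspb7, Hspb8 and Cryab), the co-chaperone Bag3 and the cytosolic chaperones Hspa8 and Hsp90aa1. They were chosen by name, 10 of the 23946 genes in the table, and all 10 passed the filter on low values that left 12100 genes for testing (1 FPKM or more in at least 4 libraries). FPKM, fragments per length of transcript and per sequencing depth, is a level per transcript length, so levels of different genes can be set side by side. PolyA RNA was sequenced from the free walls of the right ventricle (RV) and the left ventricle (LV) of male FVB mice aged 10 to 13 weeks. The mice had right ventricular failure after banding of the pulmonary artery, which raises the pressure the RV works against (the label PS is read as the banded group), or a sham operation. There were 4 libraries in each of 4 groups (RV sham, RV banded, LV sham and LV banded). No transgene or drug is named, and all groups share the FVB strain. The labels do not say whether an RV and an LV library with the same number came from one mouse, and the p-values measure the spread between libraries.

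Small heat shock proteins hold partly unfolded proteins in a soluble state without using ATP, and in muscle several of them bind desmin, actin, titin and the Z-disc. HSPA8, the constitutive HSP70, and HSP90 refold or hand on such clients with ATP. BAG3 links HSPB8 and HSPB6 to HSP70 and passes damaged sarcomere proteins to selective autophagy, and inherited changes in BAG3 and CRYAB are known causes of muscle and heart disease.

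Heat shock factors bind inverted repeats of the unit GAA in the promoters of many of these genes, which is why short stretches of promoter are shown. RefSeq windows of 300 bases (250 before and 50 after the start site, build GRCm38.p6) were at hand for 6 of the 10 genes: Hspb1, Hspb3, Hspb6, Hspb7, Hspb8 and Bag3. The repeat was searched as GAANNTTC or TTCNNGAA, each of which reads the same on both strands, and it was found in the windows of 5 of the 6 genes, all but Hspb7. It stood in 15.1% of the 32851 windows of all genes. The longer form of 3 alternating units, which contains the shorter one, stood in 0.603% of all windows and in none of these 6. In the lines below the repeat is in capitals, and each line runs 5′ to 3′ on the gene's own strand.
Hspb1, chr5:135887762-135887869, plus strand: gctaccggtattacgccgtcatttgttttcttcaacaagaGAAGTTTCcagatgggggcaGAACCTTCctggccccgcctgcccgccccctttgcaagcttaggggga
Hspb3, chr13:113663853-113663926, minus strand: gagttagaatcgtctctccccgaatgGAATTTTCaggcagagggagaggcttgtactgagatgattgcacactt
Hspb6, chr7:30553141-30553228, plus strand: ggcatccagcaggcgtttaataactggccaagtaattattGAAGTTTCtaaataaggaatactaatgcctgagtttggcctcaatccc
Hspb8, chr5:116422855-116422902, minus strand: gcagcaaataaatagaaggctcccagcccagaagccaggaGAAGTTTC
Bag3, chr7:128523603-128523632, plus strand: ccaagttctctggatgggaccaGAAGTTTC
The same 8 letters, GAAGTTTC, stood in 4 of the 6 genes. Counted from the start site, they began at base -117 in Hspb1, at -120 in the downstream of the 2 Hspb6 windows, at 3 in Hspb8 and at 43 in Bag3. Hspb1 held another match 20 bases on, and Hspb3 held GAATTTTC at -224. These are matches of letters, and no binding was measured.

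Several facts of the whole data set bear on the results. The 8 cardiomyocyte markers were above 0 in every library. Their summed level was 29965 to 33776 FPKM in RV sham, 20529 to 28017 in RV banded, 19201 to 29917 in LV sham and 39506 to 52474 in LV banded, so it was lower in every banded than in every sham RV library and higher in every banded than in every sham LV library. In bulk tissue, fewer cells of a type and less RNA per cell cannot be told apart. Fibroblast markers, 8 of 8 above 0, summed to 252 to 320 FPKM in RV sham and 406 to 628 in RV banded, and to 228 to 366 in LV sham and 396 to 813 in LV banded. The 8 smooth muscle and pericyte markers summed to 591 to 749 and 885 to 1117 in the RV and to 416 to 693 and 972 to 1460 in the LV. Pancreatic islet markers, with 4 of 6 above 0 in every library of each group, summed to 635 to 2134 in RV sham and 63.6 to 154 in RV banded, and to 86.6 to 2086 in LV sham and 25.1 to 58.8 in LV banded. In both ventricles every banded library was above every sham library for the fibroblast and smooth muscle lists and below every one for the islet list. The RV sham libraries were also the shallowest, with 11055 to 13205 genes above 0 against 13984 to 15484 in RV banded. The spacing of the low FPKM values gave an estimate of 3.72e5 to 1.35e6 fragments in RV sham and 2.45e6 to 5.89e6 in RV banded. The 45S ribosomal RNA precursor gene Rn45s was listed at 0 in 5 banded libraries (2 from the RV, 3 from the LV), whose scale factors of 1.24 to 1.30 stood above the 0.843 to 1.01 of the other 11. The part of these differences in the results below was not tested unless a value is given. Because the scale factors differed, a gene is said to have risen or fallen only where limma gave a Benjamini-Hochberg adjusted p under 0.05 in the same direction on log2(FPKM + 1) both as deposited and after each library was divided by its scale factor ("rescaled"). A single factor per library does not remove differences in cell markers or depth.

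The plot of levels by library shows how far apart the 10 genes lie. In RV sham, Cryab, encoding αB-crystallin, was highest at 3277 ± 860 FPKM (SD, n = 4), followed by the cardiac and muscle proteins Hspb7 at 926 ± 46.3 and Hspb6 (HSP20) at 628 ± 172. The highest Hspb6 library (881) overlapped the range of Hspb7 (859 to 964), so these neighbours did not separate. Hspb8 followed at 228 ± 20.02, then Hspb2 at 181 ± 44.5, Hspb1 (HSP25) at 125 ± 74.9 and Bag3 at 123 ± 37.7, with overlapping ranges from each to the next. Hspa8 (10.8 ± 4.802), Hspb3 (10.5 ± 3.08) and Hsp90aa1 (3.70 ± 2.95) were lowest and overlapped too.

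**Figure D1:**
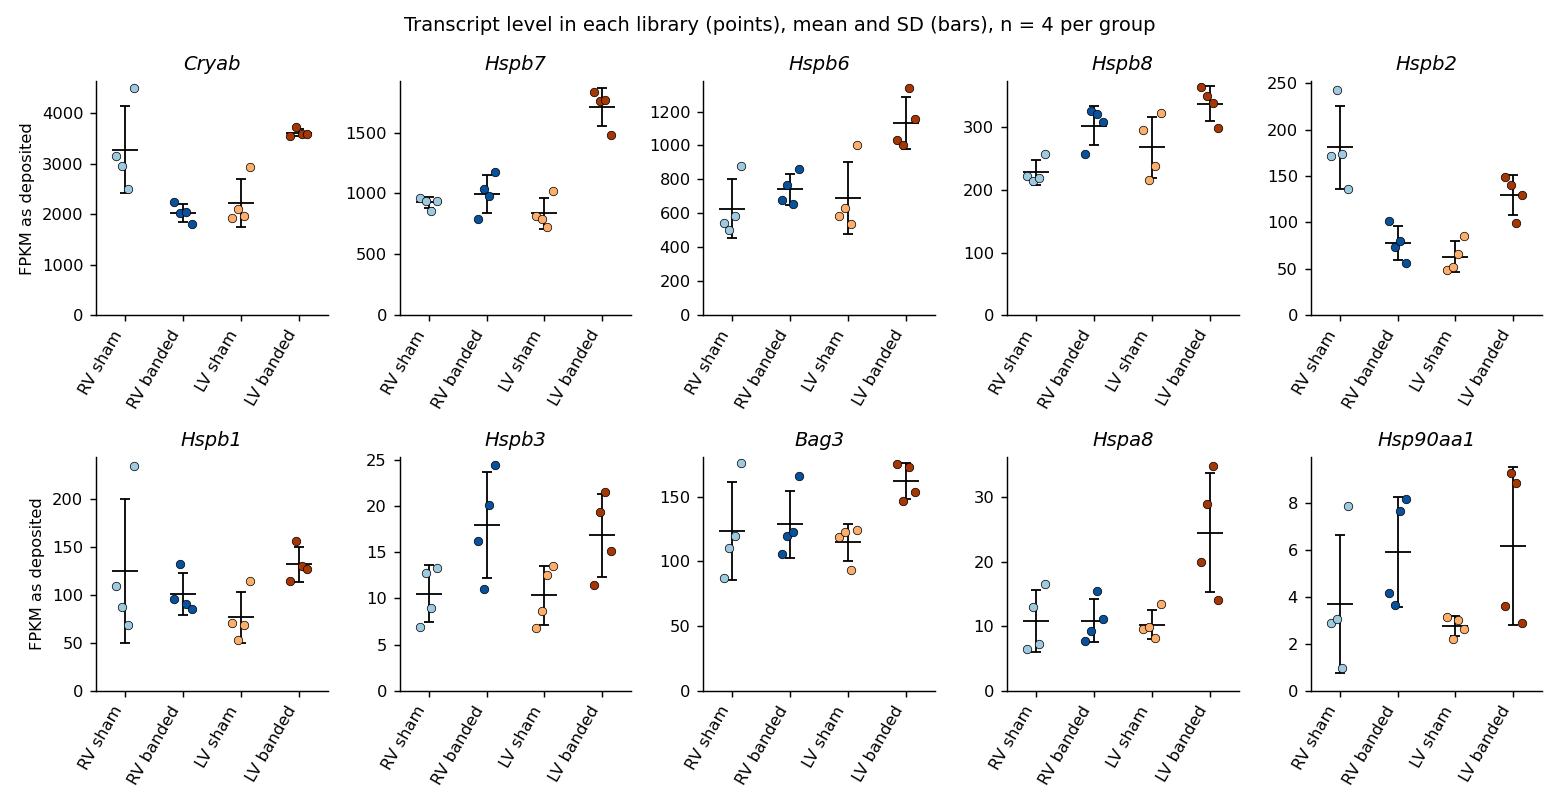
FPKM as deposited (vertical axis, from 0) of each gene in the 16 libraries; points are libraries, bars the mean and SD of 4. Hspb2 and Cryab are lower in every banded RV library than in every sham RV library. In the LV, Hspb7, Hspb2, Cryab, Bag3 and Hspa8 are higher in every banded than in every sham library. Of these, only Hspb7 stays without overlap when rescaled.

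The low levels of Hspa8 and Hsp90aa1 could depend on how reads that match several genes were assigned, which was not tested. Of the 50-base stretches of their main GENCODE M21 transcripts, 74.8% (Hspa8) and 58.5% (Hsp90aa1) also occur in other genes, nearly all pseudogenes (12 of 13 genes and 4 of 4). For Hspb1 the share was 60.4%, with 2 other genes. Gapdh, a gene that every cell uses, had 82.5% shared and was listed at 0.676 to 5.59 FPKM. The levels of Hspa8, Hsp90aa1 and Hspb1 are therefore uncertain, while Hspb3, Hspb6, Hspb8 and Bag3 shared no such stretch.

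In the banded RV, Hspb2 and Cryab fell and none of the other 8 genes passed the test. These are 2 of 10 genes changed, where 14.9% of all tested genes changed in this comparison, 10.0% upward and 4.93% downward. The median change of the 10 genes was 0.09 as deposited (all genes 0.26) and -0.13 rescaled (all genes 0.09). Hspb2 and Cryab have short transcripts, of 662.5 and 981.5 bases, and the trend of FPKM with transcript length differed between libraries. At 800 bases this trend was 0.24, -0.12, 0.21 and 0.15 in the RV sham libraries. The RV banded libraries had 0.04, -0.09, -0.04 and -0.45, a range that sham library 2 reached. A fit of rescaled values corrected for transcript length was among the alternatives run. Its values for these 2 genes are not given here, so the part of either fall that goes with this trend is left unstated.

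Hspb2 is a muscle small heat shock protein first described as a binding partner of the myotonic dystrophy kinase DMPK. Its level was 172, 242, 173 and 136 FPKM in the 4 RV sham libraries. It was 102, 73.8, 79.9 and 56.2 in the 4 banded ones. The groups did not overlap: the lowest sham library stood above the highest banded one. Hspb2 fell by 1.20 ± 0.22 (SE) on the log2 scale, 2.30-fold lower, with a limma adjusted p of 0.00221; rescaled, the change was -1.42 with an adjusted p of 0.00307. The fall passed on both scales with each of the 8 RV libraries left out in turn. With the 2 banded RV libraries in which Rn45s was above 0 alone, the difference was -1.02 and the adjusted p 0.0707, and under TPM scaling, which divides by a total of which the single entry Mir6236 held 21.3% to 59.7%, it was -0.71 and 0.0927.

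Cryab, whose product is the most abundant small heat shock protein of heart muscle and a chaperone of desmin, was at 3156, 2961, 2493 and 4497 FPKM in RV sham. It was at 2245, 2017, 2038 and 1800.3 in RV banded. The groups did not overlap, and the banded libraries were close together as deposited (SD 182) but less so when rescaled (1920 ± 497). Cryab fell by 0.66 ± 0.19 on the log2 scale, 1.58-fold lower, with a limma adjusted p of 0.0256 as deposited and a rescaled change of -0.88 with an adjusted p of 0.0114. This call is less secure than that of Hspb2: as deposited it was lost without RV_PS_9561 (adjusted p 0.057), RV_PS_9564 (0.0692) or sham library 4 (0.0653), and the change was -0.17 (0.672) under TPM scaling and -0.12 (0.725) after quantile normalization. In the libraries with Rn45s above 0 it was -0.59 (0.264).

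Hspb2 and Cryab are neighbours on chromosome 9, on opposite strands and head to head. In the GRCm38 annotation 252 exon bases of the main Hspb2 transcript lie within exons of the longest Cryab transcript, which amounts to 28.0% of the 50-base stretches of Hspb2 and 19.0% of those of Cryab. Whether the libraries keep the strand is not given in the sources used here, so reads of that overlap could have been counted for either gene, and the 2 falls are not independent observations if they were. The Hspb2 level was 5.90% ± 2.22 of the Cryab level in RV sham, 3.81% ± 0.583 in RV banded, 2.83% ± 0.420 in LV sham and 3.59% ± 0.602 in LV banded. Estimated from the depth, 41.7 to 107 fragments stood behind the Hspb2 values of RV sham and 92.4 to 201 behind those of RV banded, against 861 to 4130 for Cryab in RV sham.

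**Figure D2:**
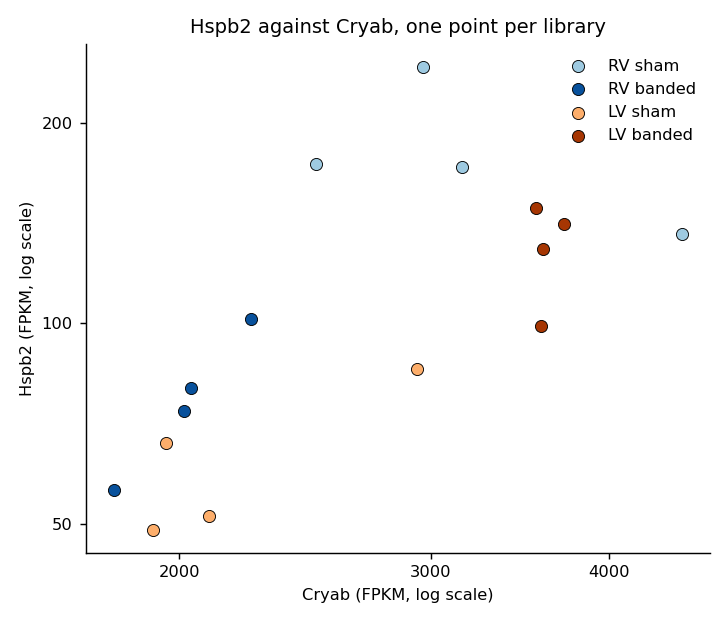
Hspb2 (vertical) against Cryab (horizontal), both in FPKM on log axes, 1 point per library, coloured by group. RV sham libraries lie at the upper right with 136 to 242 FPKM of Hspb2, and RV banded libraries at the lower left with 56.2 to 102.

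The other small heat shock proteins did not follow these 2 genes in the RV. Hspb7, a cardiac protein that binds actin and is needed for thin filament assembly, was at 964, 942, 859 and 941 FPKM in RV sham and at 792, 1037, 975 and 1173 in RV banded. The banded range enclosed the sham range, and the change was 0.09 ± 0.15 with a limma adjusted p of 0.710 (rescaled -0.13). Hspb6, a target of protein kinase A in the heart, was at 543, 504, 584 and 881 in RV sham and at 679, 767, 657 and 861.5 in RV banded. Only sham library 4 reached the banded range, and the change of 0.27 ± 0.21 did not pass (adjusted p 0.378).

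Hspb8, the partner of BAG3, was at 222, 214, 219 and 258 FPKM in RV sham and at 257, 325, 320.2 and 308 in RV banded. Sham library 4 overlapped banded library RV_PS_9552 narrowly while the others separated, and the change of 0.40 ± 0.15 missed the threshold (limma adjusted p 0.0639; rescaled 0.18, 0.346). After quantile normalization it was 0.54 with an adjusted p of 0.00612, and under TPM scaling 0.90 with 0.00822. Hspb3, which forms a complex with HSPB2 in muscle, was at 6.92, 12.8, 8.94 and 13.3 in RV sham and at 16.2, 11.04, 20.1 and 24.4 in RV banded. The groups overlapped at 1 banded library, RV_PS_9553, and the change of 0.71 ± 0.28 did not pass (adjusted p 0.0841; under TPM scaling 1.16, 0.00451). Only an estimated 2.77 to 9.11 fragments stood behind each Hspb3 value of RV sham, which limits what could be detected there. Under TPM scaling Hspb6 (0.76, adjusted p 0.0332) and Hspb7 (0.59, 0.0428) also passed, all 4 upward.

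Hspb1, the heat-inducible HSP25, varied most between sham libraries among the small heat shock proteins. It was at 109, 87.3, 68.3 and 234 FPKM in RV sham and at 95.2, 132, 90.1 and 84.8 in RV banded. Sham library 4, at 234, stood above all others, and that library was also highest of RV sham for Cryab, Hspb3, Hspb6, Hspb8, Bag3, Hspa8 and Hsp90aa1. The Hspb1 change was -0.16 ± 0.30 (limma adjusted p 0.728), and 0.19 without sham library 4.

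Bag3 and the ATP-driven chaperones showed no called change in the RV. Bag3 was at 87.1, 110.5, 119.6 and 176 FPKM in RV sham and at 106, 119.9, 123 and 166 in RV banded, with the banded range inside the sham range (change 0.09 ± 0.19, limma adjusted p 0.778). Hspa8 was at 6.42, 13.0, 7.21 and 16.5 in RV sham and at 7.80, 9.26, 15.4 and 11.1 in RV banded (change 0.07 ± 0.31, adjusted p 0.900). Hsp90aa1, the inducible HSP90 alpha, was at 2.88, 3.07, 0.961 and 7.89 in RV sham and at 4.19, 3.64, 7.67 and 8.19 in RV banded. Its groups overlapped, and the change of 0.70 ± 0.40 did not pass (adjusted p 0.229; under TPM scaling 1.04, 0.0341). An estimated 2.1 to 28.6 fragments stood behind the Hsp90aa1 values of RV sham.

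In the LV the calls were upward. Hspb7 rose, 1 of 10 genes against 2.44% of all tested genes that rose on both scales. As deposited 5 of the 10 passed upward (Hspb2, Hspb6, Hspb7, Cryab and Hspa8) against 14.3% of all genes, and 4 of those 5 did not pass after rescaling. The median change of the 10 genes was 0.78 as deposited (all genes 0.33) and 0.38 rescaled (all genes 0.01). Besides the cardiomyocyte, fibroblast and smooth muscle markers above, other marker lists were higher as deposited in every banded than in every sham LV library. Macrophage markers (7 of 7 in the table above 0) summed to 90.3 to 152 FPKM in LV sham and 202 to 346 in LV banded. Endothelial markers (8 of 8) summed to 1080 to 1283 and 1609 to 2250. Skeletal muscle markers summed to 537 to 1098 and 1283 to 1577, with Myh4 and Actn3 at 0 in every LV library. In the RV the sums of macrophage, endothelial and erythrocyte markers overlapped between sham and banded hearts. The skeletal muscle sum was lower in every banded RV library (486 to 624 FPKM) than in every sham RV library (890 to 1214).

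Hspb7 was at 817, 794, 721 and 1019 FPKM in LV sham. It was at 1834, 1757, 1765 and 1480.0 in LV banded. No library of one group reached the other, also after rescaling (826 to 1120.4 against 1354 to 1531). Hspb7 rose by 1.03 ± 0.15 on the log2 scale, 2.05-fold, with a limma adjusted p of 0.00116, and rescaled by 0.63 with an adjusted p of 0.0252. The rescaled call was lost in 7 of 8 omissions of 1 LV library (all but that of LV sham library 4; adjusted p up to 0.0857), while the call as deposited was kept in all 8. The change was 0.84 with an adjusted p of 0.0778 under TPM scaling and 0.49 with 0.102 after quantile normalization, so the call was lost in both. Against LV_PS_9564 alone, the only banded LV library with Rn45s above 0 and assumed to vary like the other groups, the change was 0.83 (adjusted p 0.877).

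Cryab was at 1918, 2098, 1959 and 2933 FPKM in LV sham and at 3554, 3718, 3582 and 3592 in LV banded, without overlap. The banded libraries differed by only 2.01% (SD over mean) as deposited, but spread more widely when rescaled (3058 ± 449). As deposited the change was 0.72 ± 0.19 (limma adjusted p 0.0193), and rescaled 0.32 (0.471), where the groups overlapped. Hspb2 was at 49.0, 51.4, 66.2 and 85.5 in LV sham and at 149, 141, 99.0 and 129 in LV banded. As deposited its groups did not overlap and the change was 1.05 ± 0.22 (adjusted p 0.00575), and rescaled it was 0.65 (0.212).

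Hspb6 was at 587, 629.6, 538 and 1005 FPKM in LV sham and at 1033, 1001, 1336 and 1156 in LV banded. Only sham library 4 reached the banded range, narrowly, and the change was 0.75 ± 0.21 as deposited (limma adjusted p 0.0243) and 0.35 rescaled (0.414). Hspa8 was at 9.62, 9.88, 8.22 and 13.4 in LV sham and at 20.02, 29.0, 34.8 and 14.1 in LV banded. The lowest banded library stood just above the highest sham one, and the change was 1.12 ± 0.31 as deposited (adjusted p 0.0223) and 0.74 rescaled (0.116).

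The remaining 5 genes did not pass in the LV on either scale. Bag3 was at 119, 123, 93.7 and 124 FPKM in LV sham and at 175, 147, 173 and 154 in LV banded. Its groups did not overlap as deposited and overlapped when rescaled, and the change was 0.50 ± 0.19 (limma adjusted p 0.0891; rescaled 0.10, 0.810). Hspb1 was at 70.9, 52.9, 68.4 and 114 in LV sham and at 114, 156, 129.7 and 126 in LV banded, with a change of 0.82 ± 0.30 (adjusted p 0.0770).
Hspb8 was at 295, 216, 238 and 322 FPKM in LV sham and at 364, 349, 338 and 299 in LV banded. Its groups overlapped and the change was 0.35 ± 0.15 (limma adjusted p 0.117), with -0.05 after rescaling. Hspb3, at 6.78 to 13.5 in LV sham and 11.4 to 21.5 in LV banded, changed by 0.66 ± 0.28 without passing (adjusted p 0.118). Hsp90aa1, at 2.21 to 3.14 in LV sham and 2.92 to 9.29 in LV banded, had a difference of 0.81 ± 0.40 (adjusted p 0.189).

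**Figure D3:**
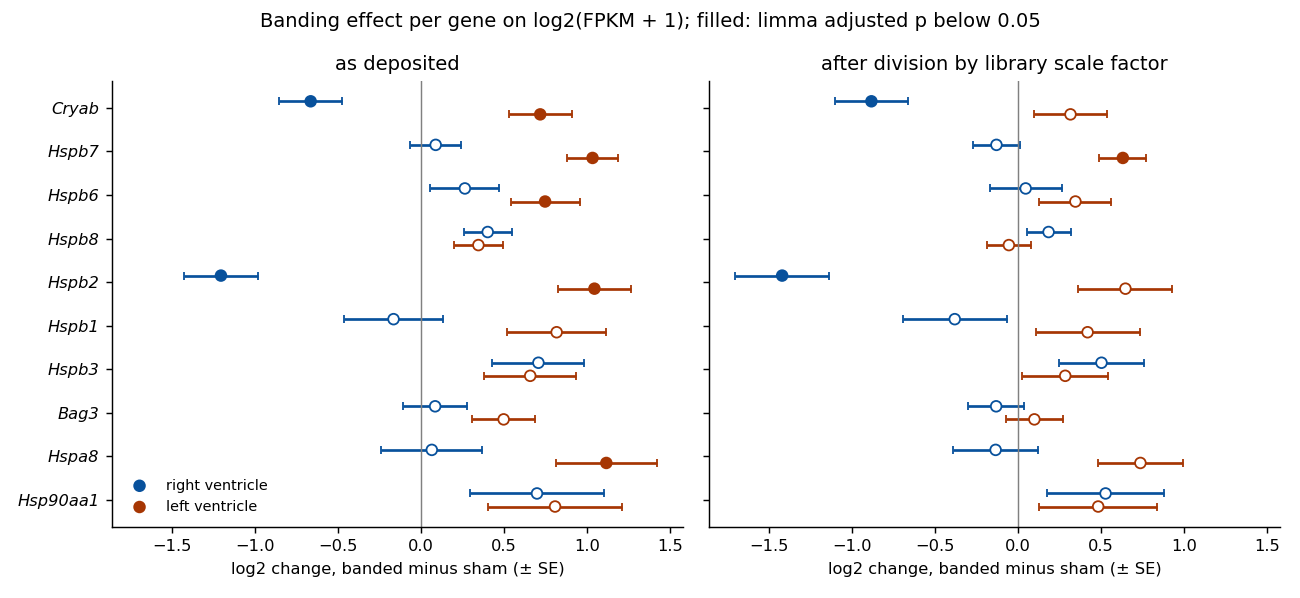
Banded minus sham difference on log2(FPKM + 1) for each gene (points, bars ± SE) in the right (blue) and left (brown) ventricle, as deposited on the left and rescaled on the right; filled points have a limma adjusted p under 0.05. Hspb2 and Cryab lie left of 0 in the RV and right of 0 in the LV on both scales, and the LV points move toward 0 on rescaling.

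Whether banding acted differently in the 2 ventricles was tested directly, as the RV difference minus the LV difference. It was lower in the RV for 3 of 10 genes on both scales, Hspb2, Cryab and Hspb7, against 3.56% of all tested genes that were lower and 4.09% that differed either way. For Hspb2 the difference was -2.25 ± 0.31, which is 4.76-fold, with a limma adjusted p of 0.000825 (rescaled -2.07, 0.00985). It passed on both scales with each of the 16 libraries left out in turn, and was -1.56 with an adjusted p of 0.0581 under TPM scaling. For Cryab it was -1.38 ± 0.27 (adjusted p 0.00492; rescaled -1.20, 0.0346). For Hspb7 it was -0.95 ± 0.22 (adjusted p 0.0148; rescaled -0.76, 0.036), with a rise in the LV and no called change in the RV. The length trend at 800 bases was -0.24, -0.20, -0.06 and 0.004 in the LV sham libraries. The LV banded libraries had 0.21, 0.20, -0.003 and 0.25, mostly the reverse of the order in the RV. The fit corrected for transcript length also covered this difference. Its Hspb2 and Cryab values are not given here, so the part of their differences that goes with this trend is left unstated.
The calls of Cryab and Hspb7 on both scales were lost in 9 and 12 of 16 omissions of 1 library (rescaled adjusted p up to 0.0798 and 0.0836), and neither passed after quantile normalization (-0.38, adjusted p 0.497, and -0.12, 0.8288) or under TPM scaling (-0.69, 0.318, and -0.25, 0.639). With only the libraries in which Rn45s was above 0, none of the 10 genes passed in the RV, the LV or the difference between them, with 2 RV and 1 LV banded libraries left. In that fit the Hspb2 difference was -2.08 with an adjusted p of 0.102.

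In sham hearts the 2 ventricles differed in 1 of the 10 genes, against 3.84% of all tested genes. Hspb2 was higher in the RV, at 136 to 242 FPKM against 49.0 to 85.5 in the LV. Every RV sham library stood above every LV sham library, and the difference was 1.51 ± 0.22, 2.85-fold, with a limma adjusted p of 0.0079 (rescaled 1.47, 0.00921), kept in all 8 omissions of 1 library. Under TPM scaling it was 0.93 with an adjusted p of 0.0534. Cryab was at 2493 to 4497 in RV sham and 1918 to 2933 in LV sham, and its difference of 0.54 ± 0.19 did not pass (adjusted p 0.1102).

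In banded hearts the difference was again in 1 of 10 genes, Hspb7, against 1.61% of all tested genes. Hspb7 was lower in the RV, at 792 to 1173 FPKM against 1480.0 to 1834 in the LV, a difference of -0.79 ± 0.15 (limma adjusted p 0.0109; rescaled -0.65, 0.032). The call on both scales was lost in 6 of 8 omissions of 1 library. Cryab was lower in the RV as deposited, at 1800.3 to 2245 against 3554 to 3718, with -0.84 ± 0.19 (adjusted p 0.0239), and did not pass rescaled (-0.70, 0.108). Hspb2 (-0.74, adjusted p 0.0802) and Hspa8 (-1.06, 0.0690) did not pass.

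Across the 4 groups, Hspb2 thus ordered as RV sham (181 ± 44.5 FPKM), LV banded (130 ± 21.9), RV banded (77.9 ± 18.7) and LV sham (63.0 ± 16.8). The ranges of RV sham and LV banded overlapped, as did those of LV banded and RV banded and those of RV banded and LV sham. For Cryab the order was LV banded (3611 ± 72.5), RV sham (3277 ± 860), LV sham (2227 ± 477) and RV banded (2025 ± 182), and each neighbouring pair overlapped. For Hspb7, LV banded (1709 ± 157) stood clear of RV banded (994 ± 158), RV sham (926 ± 46.3) and LV sham (838 ± 127), which overlapped one another.

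Taken as one pool, the 7 small heat shock proteins summed to 5375 ± 1105 FPKM in RV sham and 4259 ± 90.7 in RV banded, and to 4172 ± 885 in LV sham and 7067 ± 200 in LV banded. A share within this pool does not depend on a single scale factor per library. It does shift when other genes of the pool change. It can also shift with the trend of FPKM with transcript length, as lengths run from 662.5 (Hspb2) to 2769 bases (Hspb7). Cryab made up 60.5% ± 3.33 of the pool in RV sham (56.6% to 64.6%) and 47.6% ± 4.95 in RV banded (41.8% to 53.6%), without overlap. In the LV its share was 53.4% ± 1.4995 in sham and 51.1% ± 1.62 in banded hearts, with overlap. In the RV the shares of Hspb6 (11.6% ± 1.55 in sham, 17.4% ± 1.91 in banded) and Hspb8 (4.32% ± 0.521 and 7.10% ± 0.676) were higher in every banded library, and that of Hspb2 was 3.52% ± 1.23 and 1.83% ± 0.469. In the LV the Hspb8 share was lower in every banded library (6.49% ± 1.02 and 4.77% ± 0.327), so the order of this share was opposite in the 2 ventricles. The level of Hspb8 itself changed by 0.40 in the RV and 0.35 in the LV as deposited, and by 0.18 and -0.05 rescaled. No difference between the ventricles was called for that level on either scale. After quantile normalization the RV minus LV difference of Hspb8 was 0.87 (limma adjusted p 0.0119), and under TPM scaling it was 0.75 (0.174). Hspb7 held 17.7% ± 2.78 and 23.3% ± 3.41 in the RV and 20.3% ± 1.36 and 24.2% ± 1.75 in the LV. The Cryab share, the Hspb7 share and the Hspb2 level as a percentage of Cryab were tested in each ventricle by a two-sided exact permutation test of 4 against 4 libraries, which can give no p below 0.0286. None of the 6 passed after Benjamini-Hochberg adjustment. The exact p was 0.0286 (adjusted 0.129) for the Cryab share in the RV, and the adjusted p of the other 5 ran from 0.129 to 0.143. The shares of the other genes were not tested.

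**Figure D4:**
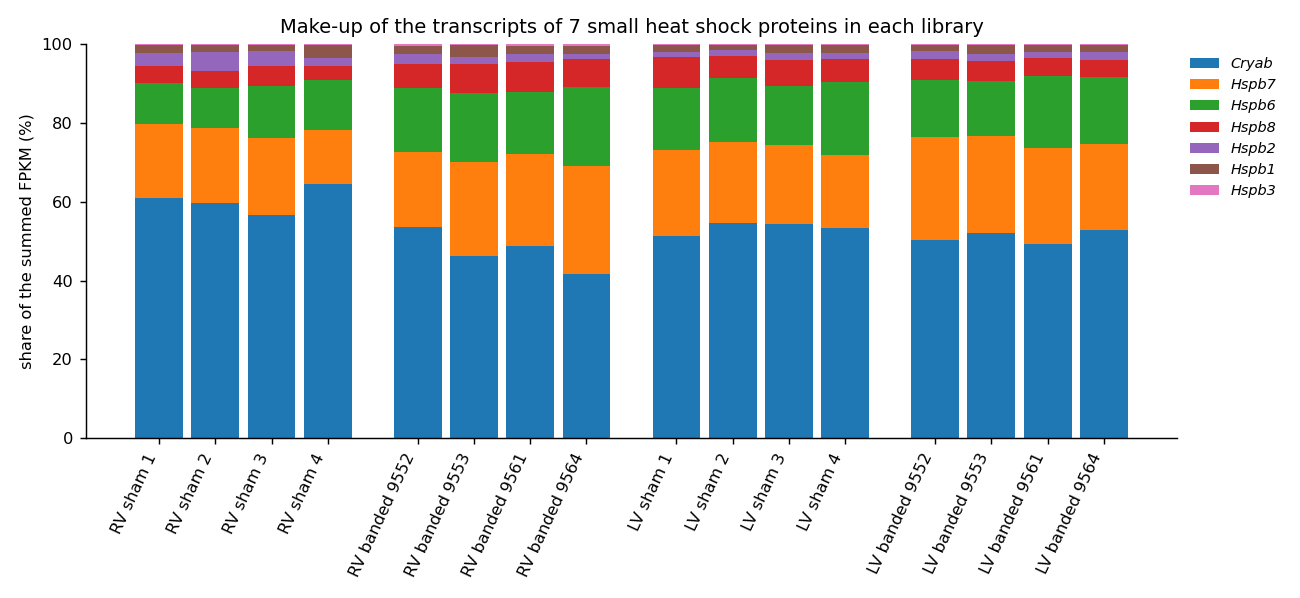
Share of the summed FPKM of the 7 small heat shock proteins (vertical, in %) held by each gene in each of the 16 libraries. Cryab fills 56.6% to 64.6% of the bars of RV sham and 41.8% to 53.6% of those of RV banded.

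The 10 genes did not move as a single block across the 16 libraries. On rescaled log2 values the pairs most alike were Hspb2 and Cryab (Pearson's r = 0.76, and 0.56 after group means were removed), Hspb1 and Cryab (0.72 and 0.83), Hspb6 and Hspb7 (0.69 and 0.60) and Hspb6 and Bag3 (0.68 and 0.71). The pair least alike was Hspb2 and Hsp90aa1 (-0.32). Among 6742 other genes at a mean of 5 FPKM or more, Hspb2 was most like Psmb3, a proteasome subunit (r = 0.96), Tceb2, elongin B (0.95), and Usmg5, a subunit of ATP synthase (0.94). Cryab was most like the mitochondrial genes Phb (prohibitin, 0.92), Cox5b (a cytochrome c oxidase subunit, 0.92) and Ndufa13 (a complex I subunit, 0.92). Hspb7 was most like Pygb (brain glycogen phosphorylase, 0.91), Eef2 (elongation factor 2, 0.89) and Ybx1 (0.88), and Hspa8 was most like the chaperonin subunit Cct5 (0.86). For the other 6 genes the best r was 0.90 (Hsp90aa1 with Tgfb1i1), 0.84 (Hspb6 with Nomo1), 0.83 (Bag3 with Ccnk, Hspb8 with Wsb2), 0.81 (Hspb1 with Nans) and 0.78 (Hspb3 with Ckap4). These correlations are descriptions over 16 libraries that share groups and library scale, and the trend of FPKM with transcript length also differed between libraries.

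The wider chaperone network was described from lists of 90 other genes, 83 of them tested. In the RV 10 of the 83 changed, 6 upward and 4 downward, a share of 12.05% (background 14.9%). In the LV 12 of the 83 rose and none fell on both scales, where 2.44% of all tested genes rose and 0.289% fell.

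Of 15 tested HSP90 co-chaperones 2 fell in the RV, where 4.93% of all tested genes fell. Fkbp4, the immunophilin FKBP52 of steroid receptor complexes, was at 116 ± 16.1 FPKM in RV sham and 47.3 ± 4.09 in RV banded, and fell by 1.27 ± 0.18 (limma adjusted p 0.000410). Unc45b, the myosin chaperone of striated muscle, fell by 0.83 ± 0.22 (67.7 ± 23.7 to 37.5 ± 12.035; adjusted p 0.0185). In the LV, Fkbp4 stood at 88.1 ± 27.2 in sham and 95.9 ± 14.1 in banded hearts, and its difference between ventricles was -1.42 (adjusted p 0.00308). Of the other HSP90 genes, Hsp90ab1, the constitutive HSP90 beta, was at 257 ± 57.1 in RV sham and 321 ± 74.1 in RV banded (0.31, adjusted p 0.296) and rose in the LV by 1.003 (242 ± 41.0 to 491 ± 103; adjusted p 0.0050). Hsp90b1, the HSP90 of the endoplasmic reticulum, rose in the LV by 1.17 (adjusted p 0.0112).

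Of 15 J-domain proteins, which bring clients to HSP70, 3 rose in the RV, where 10.0% of all tested genes rose. Dnajb4 was at 3.39 ± 2.11 FPKM in RV sham and 11.4 ± 1.63 in RV banded and rose by 1.63 ± 0.35 (limma adjusted p 0.00546), and Dnaja2 rose by 0.82 (36.5 ± 8.75 to 65.5 ± 17.1; adjusted p 0.0193). Dnajb1, the HSP40 that responds to heat shock, was at 6.35 ± 1.36 and 5.58 ± 0.696 (-0.15, adjusted p 0.589). None of 10 other HSP70 genes passed in the RV, and Hspa4 rose in the LV by 1.07 (adjusted p 0.0097). The heat-inducible Hspa1a and Hspa1b stayed under the filter, at no more than 0.821 and 1.17 FPKM in any library. Stretches that these 2 genes share with other genes were not examined, so low expression cannot be told from reads left unassigned. None of 4 heat shock factors and regulators passed on both scales in the RV. Hsf1, the main heat shock factor, was at 24.2 ± 2.76 in RV sham and 19.4 ± 6.61 in RV banded (-0.36, adjusted p 0.225; rescaled -0.57, 0.022).

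Of 12 partners and clients of BAG3-dependent autophagy, 2 rose and 1 fell in the RV, against 10.0% and 4.93% of all tested genes. Sqstm1, the autophagy receptor p62, rose by 0.65 ± 0.15 (146 ± 20.004 to 230.4 ± 32.8 FPKM; limma adjusted p 0.0100), and by 0.94 in the LV (157 ± 18.3 to 303 ± 42.4; adjusted p 0.00168). Map1lc3a, an LC3 protein of the autophagosome, fell in the RV by 1.17 ± 0.19 (467 ± 22.04 to 211 ± 44.7; adjusted p 0.00105), and its difference between ventricles was -2.15 (adjusted p 0.00069). Des, the desmin that CRYAB binds, rose in the LV by 1.46 (360 ± 104 to 972 ± 153; adjusted p 0.000701), and in the RV, at 490 ± 62.8 and 781 ± 71.3, passed as deposited (0.68, 0.0180) but not rescaled (0.46, 0.0666). Stub1, the ubiquitin ligase CHIP, was lower in the difference between ventricles by 1.09 (adjusted p 0.00796). Of 6 other BAG and exchange factors none passed in the RV.

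In the folding machines for newly made proteins, 1 of 8 subunits of the TRiC chaperonin rose in the RV (10.0% of all tested genes). This was Tcp1, by 1.07 (10.5 ± 1.23 to 23.8 ± 6.78 FPKM; limma adjusted p 0.0102). Prefoldin had 2 of 5 tested subunits higher in the LV (2.44% of all tested genes), among them Pfdn5 by 1.51 (65.8 ± 19.8 to 184 ± 17.5; adjusted p 0.000701), and none called in the RV. Of 7 mitochondrial chaperones and proteases 1 fell in the RV (4.93% of all tested genes), Clpp, the mitochondrial protease subunit, by 0.74 (50.3 ± 9.41 to 30.3 ± 8.85; adjusted p 0.0261). The 1 tested gene of the other small heat shock proteins, Hspb11, which despite its name works in intraflagellar transport, rose in the LV by 1.76 (1.15 ± 0.908 to 5.87 ± 1.64; adjusted p 0.00516). The lens protein gene Cryaa was listed at 0 in every library.

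**Figure D5:**
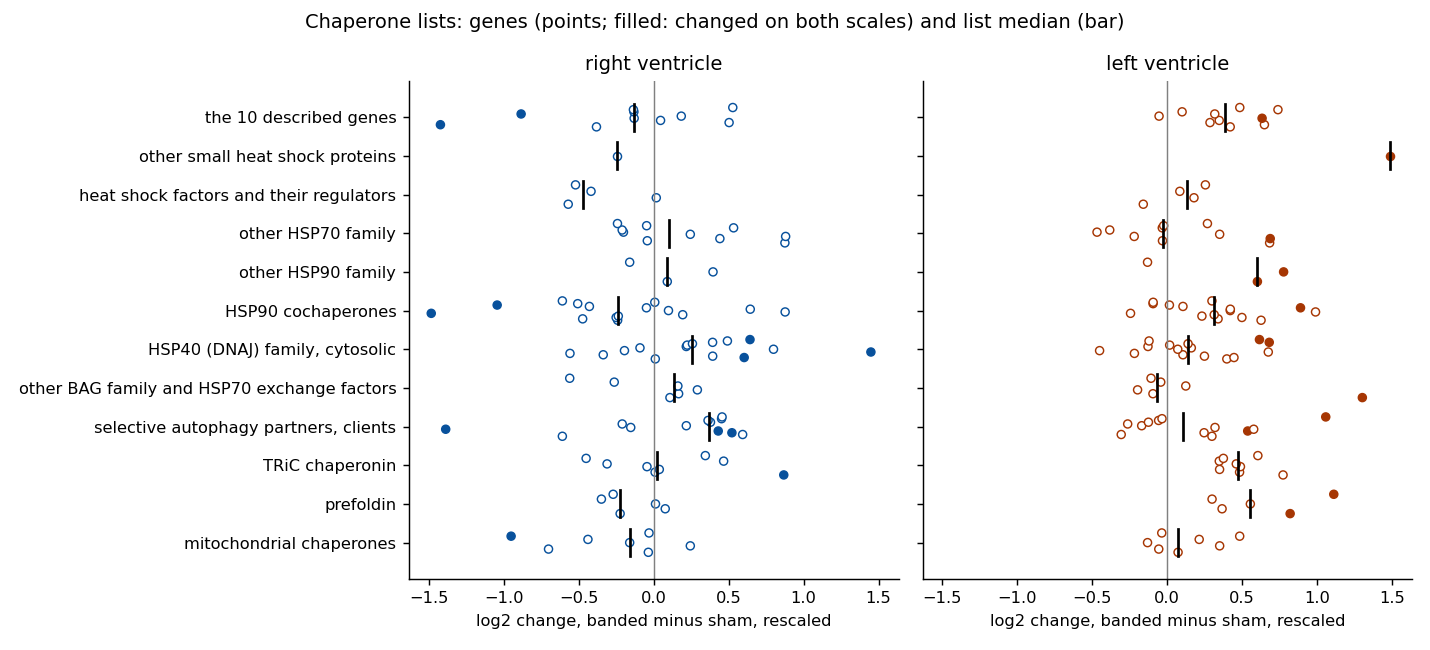
Rescaled log2 change, banded minus sham (horizontal), of every tested gene of each chaperone list (rows) in the right and left ventricle; filled points changed on both scales and black bars are list medians. Filled points lie on both sides of 0 in the RV, 6 higher and 4 lower outside the top row, and only right of 0 in the LV.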

How the data were processed

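The authors deposited FPKM per gene for 23946 genes in each of 16 polyA libraries (4 in every group). The submitters' processing notes name FastQC 0.11.5, STAR 2.5.3a, Cufflinks 2.2.1 and R 3.3.1 and the build mm9; the order and strand setting are not given in the sources used here. Group values were computed here. The test used log2(FPKM + 1), a scale that understates changes of low genes, in 1 limma 3.58.1 fit (R 4.3.3) of 4 group means with a trended prior. Benjamini-Hochberg adjustment covered the 12100 tested genes in each of 5 comparisons. A library's scale factor was its median ratio to a geometric mean across libraries, taken on the 9934 genes above 0 in all of them. The fit was tested on simulated data. Read totals were not used here; fragments were estimated from the steps between low FPKM values, assuming 200-base fragments. The genes and lists were chosen with earlier results of these data known. Named genes of a list had the smallest p in the RV, up to 2 per direction and 4 in all, plus the 3 genes most like each described gene; others named (genes under the filter, Gapdh, Rn45s, Mir6236) were chosen after their values were seen. The authors' table of group values was not used. Alternatives were other pseudocounts, filters, scalings, a length correction, subsets of libraries, a replicate block, and each library left out.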

Additional observations from a re-analysis of the deposited data

Results flagged for a closer look

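The effect of banding was lower in the RV, by a test of the difference itself, for 3 of the 10 described genes. On both scales 3.56% of all tested genes were lower. Hspb2 had an RV minus LV difference of -2.25, Cryab of -1.38 and Hspb7 of -0.95 on the log2 scale (limma). For Cryab and Hspb7 the call on both scales was lost in 9 and 12 of 16 omissions of 1 library. Neither of these 2 genes passed under TPM scaling or after quantile normalization. Among 40 combinations of gene and group, 1 had a library far from the other 3: the lowest Bag3 value of LV sham, 93.7 FPKM in library 3, where the next lowest was 119. Its gap to the nearest value was 0.8297 of the group's range, just over the limit for 4 values. Chance flags about 1 in 20 such groups.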

How the results depend on the processing

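As deposited, 2108 genes passed in the RV, 1764 in the LV, 733 for the difference between ventricles, 518 between sham ventricles and 373 between banded ones, with 2, 5, 3, 1 and 2 of the described genes. Pseudocounts of 0.1 and 5 and a filter at 5 FPKM moved none of these counts by over 1.5 times; with no filter, 1 described gene passed in the RV and 1 between banded ventricles. Rescaled, 477 genes (1 described) passed in the LV, 1027 between sham ventricles and 1 described gene between banded ones. Uncalled changes reversed to -0.13 (Hspb7), -0.13 (Bag3) and -0.13 (Hspa8) in the RV and to -0.055 (Hspb8) in the LV. Under TPM scaling, 5821 genes (5 described) passed in the RV, 77 (0) in the LV, 3008 between sham ventricles and 0 (0) between banded ones, 0 described genes passed for the difference, and Hspb1 turned to 0.33 in the RV and Cryab to -0.038 between sham ventricles. After quantile normalization, 511 genes (0 described) passed in the LV, 863 (2) between sham ventricles and 192 (0) between banded ones, with Hspa8 at -0.11 in the RV, Hspb8 at -0.32 and Bag3 at -0.13 in the LV, and Cryab at -0.16 between sham ventricles. Fitted on only the libraries compared, 881 genes (1 described) passed in the RV, 2780 in the LV and 50 between sham ventricles. With only libraries in which Rn45s was above 0, which leaves 1 LV banded library assumed to vary like the other groups, 415 genes (0 described) passed in the RV, 3 (0) in the LV, 9 (0) for the difference, 323 between sham ventricles and 4 (0) between banded ones, and RV changes were 0.014 (Hspb1), -0.030 (Hspb7), -0.084 (Bag3) and -0.22 (Hspa8). Corrected for transcript length and rescaled, 362 genes (1 described) passed in the LV, 396 for the difference, 784 between sham ventricles and 168 (1) between banded ones, with -0.20 (Hspb7), -0.18 (Bag3) and -0.13 (Hspa8) in the RV, and -0.0083 (Hspb3) and -0.14 (Hspb8) in the LV. The causes were not tested.

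With 1 library left out, 1203 to 2351 genes (1 to 3 described) passed in the RV, 788 to 2394 (2 to 6) in the LV, 448 to 929 for the difference, 80 to 633 (1 to 2) between sham ventricles and 117 to 461 (1 to 3) between banded ones; RV changes ran from -0.40 to 0.19 (Hspb1), -0.064 to 0.27 (Bag3) and -0.13 to 0.29 (Hspa8). The lowest gene counts came without RV_PS_9564, LV_sham_2, LV_PS_9552, LV_sham_3 and LV_PS_9552. The call on both scales with a library left out was examined after seeing the data.

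The numbers shared by RV and LV libraries were also used as a replicate block. The deviations of same-numbered libraries correlated at -0.09 to 0.15, which does not show whether they came from one mouse, and the numbers were not used as pairs in the fit reported. With the block 475 genes passed for the difference, 131 between sham ventricles and 208 between banded ones; Hspb7 lost its call for the difference (adjusted p 0.0658) and between banded ventricles (0.0545). Among the RV libraries, only RV_PS_9552 correlated better with its own number (0.15) than with any other number (at most -0.014). Of 21 uncalled differences of described genes whose values in the reported fit are not given, 16 changed sign under some setting. Of these 21, 2 gained a call, both of Hspb8. Its difference between sham ventricles was -0.80 under TPM scaling (limma adjusted p 0.0290) and -0.46 after quantile normalization (0.0301). Depth limits Hspb3, Hspa8 and Hsp90aa1 most, and the low depth of RV sham touches every RV comparison.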
